A study of Homo sapiens with 22 samples.

Results

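The 10 genes described here encode enzymes that cut the extracellular matrix and proteins that restrain them. They are the matrix metalloproteinases MMP2, MMP9 and MMP14, the metalloproteinases ADAM12 and ADAMTS2, the plasminogen activators PLAU and PLAT, and the protease inhibitors TIMP1, TIMP3 and TFPI2. They were found by symbol among the 63677 genes of each deposited table, and all 10 matched. ADAMTS2, ADAM12, PLAU, TFPI2 and MMP2 were chosen by their RPKM in these same libraries, where they had been seen to change, so their differences are given below as a description, with no p-value. Where a count of called genes takes them in, they are named only so that the count is complete, and nothing is read from it. No such choice is recorded for MMP9, MMP14, PLAT, TIMP1 and TIMP3. The list of 10 was nevertheless made with earlier results of these data known, so p-values of those members are not independent of that knowledge.

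Matrix metalloproteinases are secreted or membrane-bound zinc enzymes that are made as inactive precursors and opened by other proteases. MMP14 sits in the cell membrane and activates MMP2, with TIMP2 as a bridge, while the TIMP proteins block the active enzymes. PLAU (urokinase) and PLAT (tissue plasminogen activator) turn plasminogen into plasmin, a broad protease that TFPI2 inhibits. ADAMTS2 trims the amino-terminal propeptide of fibrillar procollagens. In neuroblastoma these genes are studied for their part in migration, invasion and neurite outgrowth.

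The study sequenced total RNA, depleted of ribosomal RNA with a stranded kit, from human neuroblastoma cell lines. SH-SY5Y cells had taken up lentiviral shRNAs and been selected with puromycin, controls included, and carried a scrambled shRNA or an shRNA against the CASC15-003 (sh003) or CASC15-004 (sh004) transcript of the long non-coding RNA gene CASC15. They were sampled as monolayers at day 0 (3 control, 3 sh003 and 2 sh004 libraries) and after 7 days of retinoic acid (2, 3 and 2 libraries), and as spheres (1 control, 2 sh003 and 2 sh004). From KELLY cells, another neuroblastoma line, there are 2 libraries, 1 treated with control siRNA and the other with siRNA against SOX9. The retinoic acid dose is labelled 10 mM. The treatment text gives 10% serum for day 0 and 1% for day 7, except for the 2 sh003 libraries with contradicting labels, where it is the reverse, and the growth text gives 10% throughout. No day 7 library lacks retinoic acid, so retinoic acid, serum and 7 days of culture cannot be told apart. Each knockdown group mixes shRNAs sh1 and sh2, the monolayers come from 3 batches numbered in the titles, and every sh004 monolayer is of batch 2. Nothing in the labels says that libraries of a group came from separate cultures, so the error behind each p-value may be technical spread alone.

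The 4 shRNA sequences are what separates the knockdown groups. They are printed 5′ to 3′ as the labels give them, 21 bases each, in lower case because no part is marked.
sh003 sh1: ctagcactgacctccttcatt
sh003 sh2: ctttccatcagccaacaatat
sh004 sh1: caggctgttcccagggattta
sh004 sh2: taggaataccttacatccaat

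Values are RPKM, assigned reads scaled to gene length and to the library's read total, so levels can be compared between genes. The libraries held 11884895 to 62075189 assigned reads. CYP26A1, the retinoic acid hydroxylase, serves as a check of treatment. It was at 0 to 0.271 RPKM in all day 0 libraries and 9.0 to 687 RPKM in all day 7 libraries. This matches the titles, also for the 2 sh003 libraries whose other labels contradict them. At day 7 CYP26A1 was at 221 and 225 RPKM in control and 571 to 687 RPKM with sh003. With sh004 it was at 301 (sh1) and 9.0 RPKM (sh2). The sh004 values of day 7 below include that sh2 library. Whether its low CYP26A1 reflects a weaker response to treatment was not tested. CASC15, summed over its transcripts, was at 1.31 to 3.33 RPKM in control monolayers, 1.57 to 3.38 RPKM with sh003 and 1.14 to 1.48 RPKM with sh004; a sum over transcripts does not check the CASC15-003 knockdown. Of 8 adrenergic neuroblast markers 6 were at RPKM 1 or above in every SH-SY5Y library, and so were 7 of 10 mesenchymal markers, whereas none of 6 endothelial or 6 leukocyte markers was. The summed mesenchymal markers came to 183 to 454 RPKM in control, 376 to 504 RPKM in sh003 and 209 to 216 RPKM in sh004 libraries at day 0, and to 404 to 599 RPKM with sh003 at day 7 beside 248 to 428 RPKM in control and 168 to 405 RPKM in sh004. Their part in the differences below was not tested. In bulk RNA, fewer cells that make a transcript and less of it per cell cannot be told apart.

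In undifferentiated control cells the inhibitor TFPI2 and the gelatinase MMP2 were the most abundant of the 10 transcripts. At day 0 TFPI2 averaged 224 ± 151 RPKM (SD, n = 3), MMP2 106 ± 27.4 RPKM, TIMP1 32.8 ± 21.6 RPKM and ADAM12 16.7 ± 1.66 RPKM. PLAT (8.44 ± 9.18 RPKM), TIMP3 (5.06 ± 2.95 RPKM), PLAU (3.63 ± 5.49 RPKM) and ADAMTS2 (1.39 ± 1.10 RPKM) followed, and neighbours among these 4 did not differ beyond their spread. MMP9 (0.639 ± 0.708 RPKM) and MMP14 (0.320 ± 0.0997 RPKM) were near the bottom of what was measured. The order was another one in control cells at day 7, where MMP2 (41.2 ± 0.498 RPKM, n = 2), PLAT (39.8 ± 32.0 RPKM), TFPI2 (39.8 ± 9.74 RPKM), ADAMTS2 (35.3 ± 20.1 RPKM), TIMP1 (35.3 ± 3.66 RPKM) and TIMP3 (25.7 ± 9.53 RPKM) lay close together. ADAM12 (2.68 ± 0.975 RPKM), PLAU (0.753 ± 0.370 RPKM), MMP9 (0.751 ± 0.0774 RPKM) and MMP14 (0.346 ± 0.108 RPKM) were well below them.

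**Figure D1:**
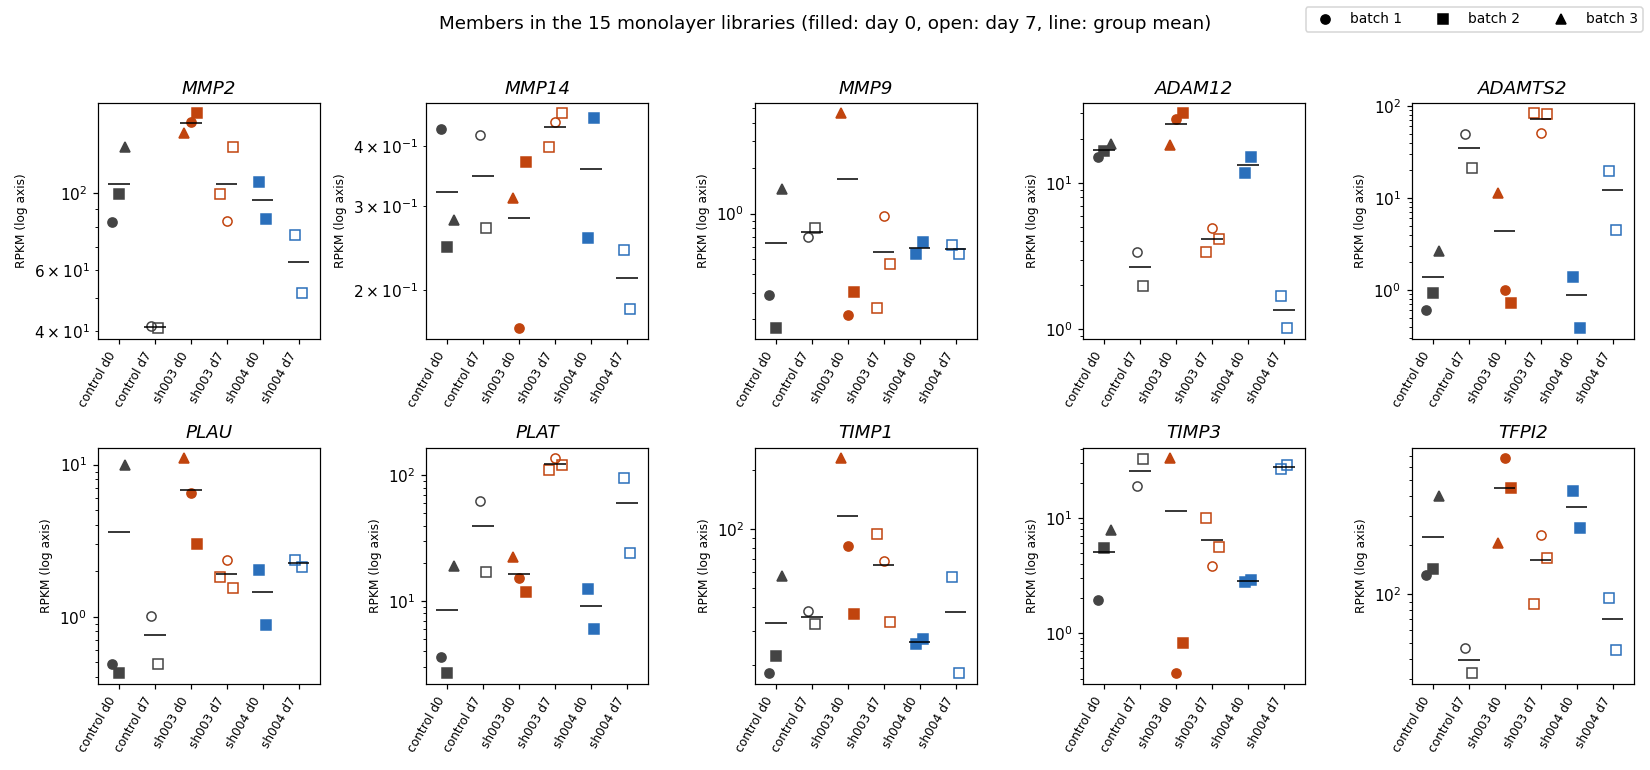
RPKM of the 10 genes in the 15 monolayer libraries on log axes that differ between panels, 1 point a library, with day 0 (d0) filled, day 7 (d7) open, the marker shape giving the batch and a line at each group's mean. ADAM12 and ADAMTS2 separate the days in every shRNA group, and the 2 batch 3 libraries (triangles) are the highest of their group for MMP9, PLAU and PLAT.

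The plot of the monolayer libraries also shows that batch 3, which was sampled at day 0 only, stands apart for several members. It holds 1 control and 1 sh003 library. Within the day 0 controls, PLAU was 9.97 RPKM in batch 3 beside 0.485 and 0.426 RPKM in batches 1 and 2, and PLAT was 19.0 beside 3.61 and 2.68 RPKM. Values within batches or without batch 3 are therefore given beside several results below.

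The windows just upstream of 4 members are shown because ADAMTS2, ADAM12, TFPI2 and TIMP3 had large differences between days, a choice made after their values were seen. Each holds the 250 bases before the RefSeq start on build GRCh38.p14, 5′ to 3′ on the gene's own strand. Capitals mark matches to a GC box (GGGCGG or CCGCCC) or to TGANTCA, a loose form of the AP-1 site. N is any base there, so the pattern, though not each match, reads the same on both strands. The windows lie at chr5:179345462-179345711 (minus strand), chr10:126388478-126388727 (minus), chr7:93890754-93891003 (minus) and chr22:32801455-32801704 (plus). These coordinates are on another build than the hg19 of the deposited tables.
ADAMTS2: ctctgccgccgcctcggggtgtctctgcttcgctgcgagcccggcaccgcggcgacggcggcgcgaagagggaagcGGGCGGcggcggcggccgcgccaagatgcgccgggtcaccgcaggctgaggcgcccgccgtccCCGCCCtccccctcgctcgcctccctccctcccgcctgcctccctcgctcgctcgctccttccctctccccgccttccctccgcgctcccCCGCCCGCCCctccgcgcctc
ADAM12: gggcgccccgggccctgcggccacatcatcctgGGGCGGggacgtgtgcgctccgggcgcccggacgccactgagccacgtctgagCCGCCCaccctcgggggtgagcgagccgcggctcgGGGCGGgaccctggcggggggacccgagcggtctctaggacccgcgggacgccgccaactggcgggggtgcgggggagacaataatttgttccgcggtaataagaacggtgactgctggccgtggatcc
TFPI2: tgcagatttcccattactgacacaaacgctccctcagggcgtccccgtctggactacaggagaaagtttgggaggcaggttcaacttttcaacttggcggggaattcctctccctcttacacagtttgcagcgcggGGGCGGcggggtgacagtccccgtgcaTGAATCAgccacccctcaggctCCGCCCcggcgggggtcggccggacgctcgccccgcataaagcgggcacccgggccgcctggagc
TIMP3: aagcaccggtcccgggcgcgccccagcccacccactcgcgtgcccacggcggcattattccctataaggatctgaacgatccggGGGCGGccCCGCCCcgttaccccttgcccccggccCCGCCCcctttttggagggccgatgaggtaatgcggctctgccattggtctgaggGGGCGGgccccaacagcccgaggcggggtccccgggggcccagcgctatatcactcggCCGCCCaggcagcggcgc

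All 4 windows are rich in G and C, from 64.4% in TFPI2 to 80.0% in ADAMTS2, with 72.4% in TIMP3 and 73.6% in ADAM12. Counting overlapping matches, the GC box occurs 4 times before ADAMTS2, 3 times before ADAM12, 2 times before TFPI2 and 5 times before TIMP3. RefSeq windows were found for 7 of the 10 members (8 windows, since PLAU has 2), and not for MMP2, MMP9 and PLAT. Of these 8 windows 7 hold a GC box, as do 42.6% of all 35116 windows of that length. The loose AP-1 pattern TGANTCA is in 1 member window, that of TFPI2 (as TGAATCA), and in 6.57% of all windows. None of the 8 holds TATAAA on either strand (10.7% of all windows), nor the retinoic acid receptor direct repeats on either strand, which are 2 copies of AGGTCA with 5 or 2 bases between them (0.00285% of all windows for each spacing).

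MMP2, the secreted gelatinase that cuts denatured collagen and collagen IV, was lower after retinoic acid and higher with sh003. The control libraries of batches 1, 2 and 3 had 82.8, 99.9 and 136 RPKM at day 0, and those of batches 1 and 2 had 41.6 and 40.8 RPKM at day 7. With sh003 the day 0 libraries had 149.6 (sh1, batch 3), 160.5 (sh2, batch 1) and 170.3 RPKM (sh2, batch 2), all above every control, and the day 7 libraries had 99.4 (sh1, batch 2), 83.4 (sh2, batch 1) and 136 RPKM (sh2, batch 2). The sh004 libraries sh1 and sh2 had 108 and 84.2 RPKM at day 0 and 75.6 and 51.5 RPKM at day 7. Day 0 and day 7 did not overlap in any of the 3 shRNA groups. Of all genes tested, 9.44% in control, 8.70% with sh003 and 18.1% with sh004 were lower at day 7 without overlap. The shares that were higher without overlap were 17.7%, 14.9% and 20.9%. These shares also stand beside the statements on overlap of days for the other members. The log2 difference of day 7 from day 0, on log2(RPKM + 0.5), was -1.33 ± 0.26 (SE) in control, -0.62 ± 0.23 with sh003 and -0.61 ± 0.28 with sh004. That of sh003 from control was 0.62 ± 0.23 at day 0 and 1.33 ± 0.26 at day 7. Batch by batch, sh003 lay above control in 3 of 3 same-batch pairs of libraries on both days, by 0.13 to 0.95 at day 0 and 1.00 to 1.72 at day 7.

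MMP14, the membrane-bound activator of MMP2, was close to the limit of what these libraries measure. It had 9 to 74 reads and 0.166 to 0.468 RPKM in the monolayers, never reached the minimum of RPKM 1 in 2 libraries, and was not tested there. MMP9, the other gelatinase, was at 0.175 to 0.961 RPKM in 13 monolayer libraries and reached 1.45 RPKM in the control and 4.60 RPKM in the sh003 library of batch 3. It passed the minimum only through these 2 libraries. Both are of day 0, so p-values of MMP9 are not given for monolayers, and nothing is read from the fact that no MMP9 difference passed the threshold. After retinoic acid the estimates were 0.30 ± 0.76 in control, -0.50 ± 0.68 in sh003 cells and -0.01 ± 0.83 in sh004 cells. SLC12A5-AS1, which overlaps MMP9 on the opposite strand, was at 1.79 RPKM or less in all 22 libraries. That bound lies above most MMP9 values, and whether reads of the overlap entered MMP9 was not tested.

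ADAM12, a membrane-anchored and secreted metalloproteinase of the ADAM family, was lower at day 7 in every shRNA group. Control libraries had 15.1, 16.7 and 18.4 RPKM at day 0 (batches 1, 2 and 3) and 3.37 and 1.99 RPKM at day 7 (batches 1 and 2). With sh003 the values were 18.3 (sh1, batch 3), 27.7 (sh2, batch 1) and 30.0 RPKM (sh2, batch 2) at day 0 and 3.39 (sh1, batch 2), 4.96 (sh2, batch 1) and 4.14 RPKM (sh2, batch 2) at day 7. With sh004 sh1 and sh2 gave 11.7 and 15.1 RPKM at day 0 and 1.68 and 1.02 RPKM at day 7. Every day 7 library lay below every day 0 library. The log2 difference was -2.47 ± 0.27 in control, -2.45 ± 0.24 with sh003 and -2.92 ± 0.29 with sh004. At day 7 the sh003 libraries lay just above the controls and the sh004 libraries just below them, with estimates of 0.57 ± 0.27 and -0.77 ± 0.29.

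ADAMTS2, the procollagen N-proteinase, went the other way and from a low start. Control libraries had 0.602, 0.932 and 2.65 RPKM at day 0 (batches 1, 2 and 3) and 49.4 and 21.1 RPKM at day 7 (batches 1 and 2). With sh003 the day 0 libraries had 11.3 (sh1, batch 3), 0.999 (sh2, batch 1) and 0.715 RPKM (sh2, batch 2), and the day 7 libraries 83.2 (sh1, batch 2), 51.2 (sh2, batch 1) and 82.6 RPKM (sh2, batch 2). With sh004 sh1 and sh2 had 1.37 and 0.384 RPKM at day 0 and 19.8 and 4.54 RPKM at day 7. The days did not overlap in any shRNA group, and the log2 difference was 4.27 ± 0.93 in control, 4.68 ± 0.83 with sh003 and 2.97 ± 1.02 with sh004. At day 7 all sh003 libraries were above all controls (difference 1.12 ± 0.93), the batch 1 pair by only 0.05, and all sh004 libraries were below them (-1.70 ± 1.02).

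**Figure D2:**
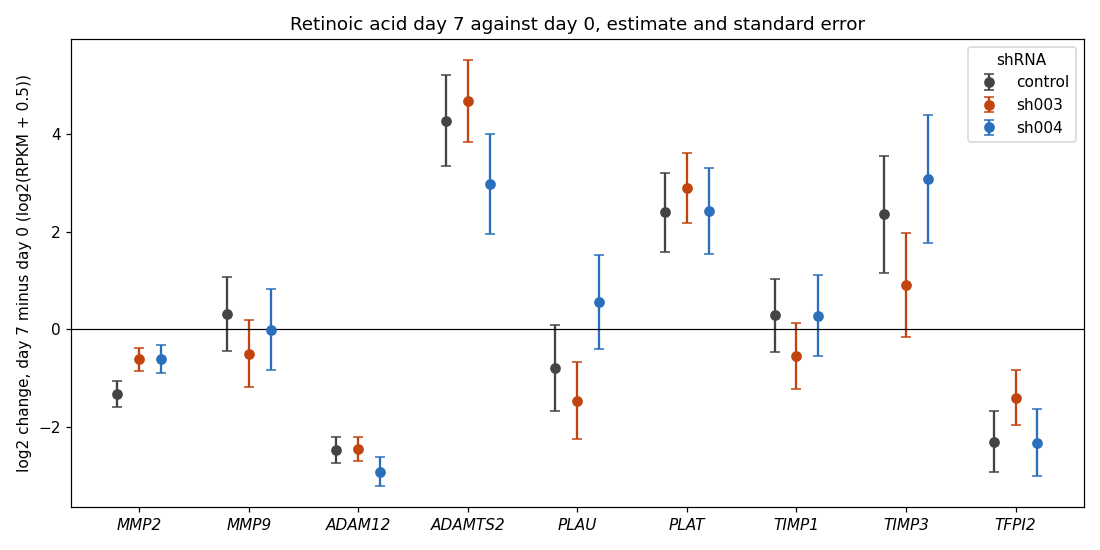
Log2 difference of day 7 from day 0, on log2(RPKM + 0.5), for the 9 members tested in monolayers, with points at the limma estimate and bars of 1 standard error, in control, sh003 and sh004 cells. ADAMTS2, PLAT and TIMP3 lie above 0 and MMP2, ADAM12 and TFPI2 below 0 in all 3 shRNA groups.

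Of the plasminogen activators, PLAU was low, and its highest values at day 0 were those of batch 3. Control libraries were at 0.485, 0.426 and 9.97 RPKM at day 0 (batches 1, 2 and 3) and 1.01 and 0.492 RPKM at day 7 (batches 1 and 2). The sh003 libraries had 11.0 (sh1, batch 3), 6.55 (sh2, batch 1) and 3.00 RPKM (sh2, batch 2) at day 0 and 1.83 (sh1, batch 2), 2.35 (sh2, batch 1) and 1.54 RPKM (sh2, batch 2) at day 7. The sh004 libraries sh1 and sh2 had 2.02 and 0.880 RPKM at day 0 and 2.35 and 2.13 RPKM at day 7. Same-batch pairs placed sh003 above control in 3 of 3 cases on both days, by 0.14 (batch 3), 1.92 (batch 2) and 2.84 (batch 1) at day 0 and 0.91 to 1.23 at day 7. The retinoic acid difference was -0.79 ± 0.88 in control cells and turned to 0.36 without batch 3, with 0.10 to 0.62 within batches 1 and 2. It was -1.46 ± 0.79 with sh003 (-1.31 to -0.59 within batches) and 0.55 ± 0.97 with sh004. The sh003 difference from control was 1.63 ± 0.79 at day 0, or 2.78 without the batch 3 control, and 0.96 ± 0.88 at day 7.

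PLAT, known in the nervous system for plasmin formation around growing neurites, was higher after retinoic acid in each shRNA group. Control libraries had 3.61, 2.68 and 19.0 RPKM at day 0 (batches 1, 2 and 3) and 62.5 and 17.2 RPKM at day 7 (batches 1 and 2), so that the batch 3 library overlapped day 7. With sh003 the values were 22.3 (sh1, batch 3), 15.4 (sh2, batch 1) and 11.9 RPKM (sh2, batch 2) at day 0 and 111 (sh1, batch 2), 137 (sh2, batch 1) and 120.5 RPKM (sh2, batch 2) at day 7, and with sh004 sh1 and sh2 12.5 and 5.97 RPKM at day 0 and 96.2 and 24.4 RPKM at day 7. The estimates were 2.40 ± 0.81 in control (adjusted p = 0.205), 2.89 ± 0.72 in sh003 cells (adjusted p = 0.0616) and 2.42 ± 0.88 in sh004 cells (adjusted p = 0.471), none past the threshold. With batch as a block PLAT passed the threshold in control (2.92, adjusted p = 0.0270) and with sh003 (3.53, adjusted p = 0.00635). With sh004 it did not pass (adjusted p = 0.104), although both day 7 libraries lay above both day 0 libraries there. The sh003 estimate also passed without 1 library in 3 cases: the batch 3 control (adjusted p = 0.0284), or the day 7 sh004 library with sh1 (0.0437) or sh2 (0.0434). At day 7 every sh003 library was above every control, with a difference of 1.88 ± 0.81 (adjusted p = 0.656) whose 95% interval ran from 0.11 to 3.65. The same-batch pairs gave 1.13 to 2.77, and the estimate was 0.96 without the batch 2 control and 2.79 without the batch 1 control.

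TIMP1, a secreted inhibitor of most matrix metalloproteinases, did not separate the days. Control libraries had 18.4, 22.3 and 57.7 RPKM at day 0 (batches 1, 2 and 3) and 37.8 and 32.7 RPKM at day 7 (batches 1 and 2). With sh003 they had 231 (sh1, batch 3), 81.5 (sh2, batch 1) and 36.7 RPKM (sh2, batch 2) at day 0 and 94.3 (sh1, batch 2), 68.7 (sh2, batch 1) and 33.6 RPKM (sh2, batch 2) at day 7, and with sh004 25.7 and 27.3 RPKM at day 0 and 56.6 and 18.3 RPKM at day 7 (sh1 and sh2). All same-batch pairs put sh003 above control, by 0.70 to 2.12 at day 0 and 0.04 to 1.52 at day 7, but the groups overlapped. The estimates, 1.60 ± 0.67 at day 0 (adjusted p = 0.826) and 0.77 ± 0.75 at day 7 (adjusted p = 0.991), did not pass the threshold. TIMP1 lies inside the gene of the synaptic vesicle protein SYN1 on the opposite strand, which was at 0.949 to 12.1 RPKM in the monolayers. Whether reads were counted by strand is not given in the sources used here. Without strand, a read from bases that both genes cover could come from either, and how many such reads there are was not tested.

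TIMP3, the inhibitor that binds to the matrix and also blocks ADAM and ADAMTS enzymes, was lower with sh003 than in control at day 7 in every library. Control libraries had 1.94, 5.47 and 7.79 RPKM at day 0 (batches 1, 2 and 3) and 18.9 and 32.4 RPKM at day 7 (batches 1 and 2). With sh003 the batch 3 library (sh1) stood at 33.1 RPKM, beside 0.448 (sh2, batch 1) and 0.819 RPKM (sh2, batch 2) at day 0, and the day 7 libraries had 9.93 (sh1, batch 2), 3.82 (sh2, batch 1) and 5.64 RPKM (sh2, batch 2). With sh004 sh1 and sh2 had 2.80 and 2.91 RPKM at day 0 and 26.7 and 28.8 RPKM at day 7. The days did not overlap in control and sh004 cells. The estimates for retinoic acid were 2.35 ± 1.2 in control (adjusted p = 0.419), 0.91 ± 1.07 in sh003 cells (adjusted p = 0.773) and 3.07 ± 1.31 in sh004 cells (adjusted p = 0.570). With batch as a block TIMP3 passed the threshold in control cells (3.36, adjusted p = 0.0236) and not in sh003 or sh004 cells. The sh003 library of batch 3 had the highest TIMP3 of day 0 and is the only sh1 library of its group. Without it TIMP3 passed in sh003 cells (2.54, adjusted p = 0.0291) and in sh004 cells (3.07, adjusted p = 0.0489), the latter with the same estimate and a smaller spread. In sh003 cells the estimate was -0.03 without the sh2 library of day 0 in batch 1. It was -0.37 without the 2 libraries with contradicting labels.

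At day 7 all sh003 libraries had less TIMP3 than all controls and all sh004 libraries. The difference from control was -1.95 ± 1.2 (adjusted p = 0.835, 95% interval -4.58 to 0.67), and 3 of 3 same-batch pairs were lower, by 1.66 to 2.42. At day 0 the batch 1 and 2 pairs were lower too, whereas the batch 3 pair, the only one with sh1, was higher by 2.02. SYN3, the gene that TIMP3 lies in, was at 0.280 RPKM or less in all 22 libraries.

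TFPI2, a Kunitz-type inhibitor of plasmin and other serine proteases, was the most abundant member at day 0 in all 3 shRNA groups by mean. Control libraries had 131, 143 and 398 RPKM at day 0 (batches 1, 2 and 3) and 46.6 and 32.9 RPKM at day 7 (batches 1 and 2). With sh003 they had 206 (sh1, batch 3), 680.1 (sh2, batch 1) and 446 RPKM (sh2, batch 2) at day 0 and 86.9 (sh1, batch 2), 230.5 (sh2, batch 1) and 167 RPKM (sh2, batch 2) at day 7. With sh004 sh1 and sh2 had 429 and 256 RPKM at day 0 and 95.2 and 45.4 RPKM at day 7. The days did not overlap in control and sh004 cells, and with sh003 the ranges met between 206 and 230.5 RPKM. The log2 difference of day 7 from day 0 was -2.30 ± 0.63 in control, -1.41 ± 0.56 with sh003 and -2.32 ± 0.69 with sh004. At day 7 all sh003 libraries were above both controls (1.92 ± 0.63). At day 0 sh003 was above control in the batch 1 and 2 pairs, with sh2, and below it in the batch 3 pair, with sh1, by 0.94, and the estimate of 1.02 ± 0.56 became 2.01 without batch 3.

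**Figure D3:**
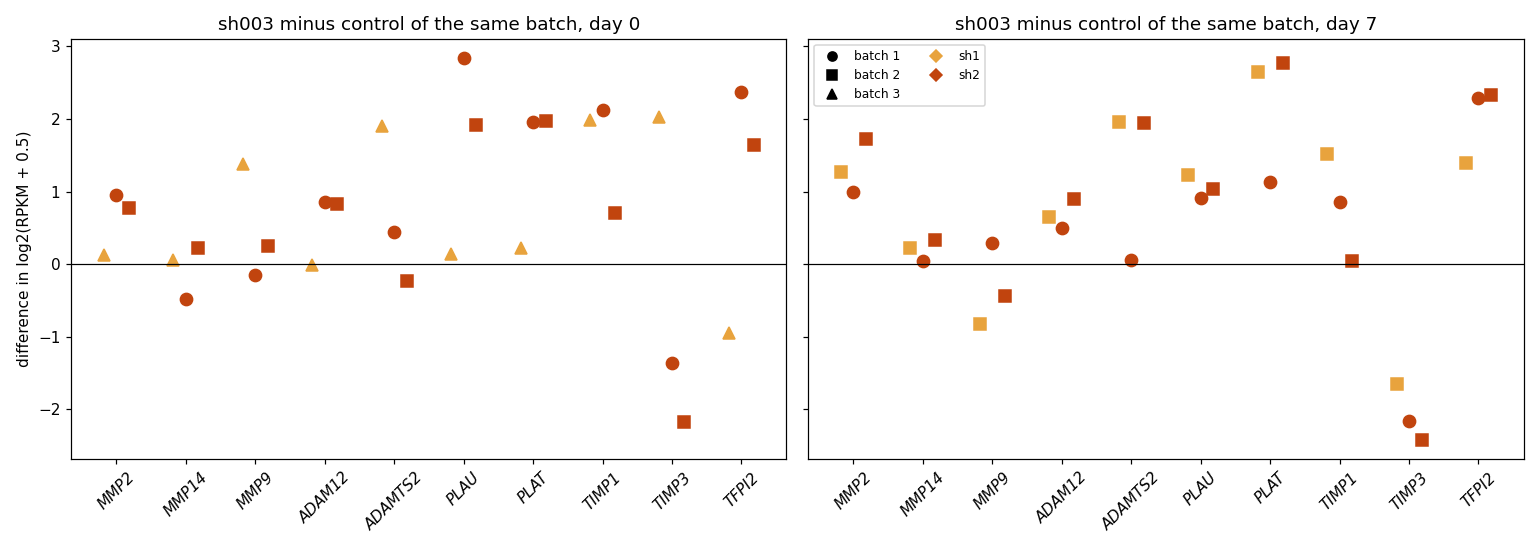
Difference of log2(RPKM + 0.5) between each sh003 library and the control library of the same batch and day for the 10 members, with the marker shape giving the batch and the colour the shRNA. At day 7 the 3 points of TIMP3 lie below 0 and those of 8 members at or above 0, while at day 0 the batch 3 pair (triangles, sh1) differs from the other 2 in PLAU, PLAT, TIMP3 and TFPI2.

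The plot of same-batch differences shows the members side by side. At day 7 all 3 pairs placed MMP2, MMP14, ADAM12, ADAMTS2, PLAU, PLAT, TIMP1 and TFPI2 higher with sh003 and TIMP3 lower, and MMP9 was mixed. The 2 pairs of batch 2 use the same control library, and batch 2 alone holds an sh1 library at day 7. Over groups, 6 members (MMP2, ADAM12, ADAMTS2, PLAU, PLAT and TFPI2) were higher with sh003 at day 7 without overlap and 1 (TIMP3) was lower, where 9.16% and 13.6% of all genes tested did so. At day 0 only MMP2 did, higher with sh003, as did 3.91% of all genes. MMP2, ADAM12, ADAMTS2, PLAU and TFPI2 were chosen for their change, so nothing is read from these counts.

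The 2 sh003 libraries with contradicting labels are the day 7 library of sh1 in batch 2 and the day 0 library of sh2 in batch 1. Without both, the retinoic acid difference with sh003 was -2.25 for ADAM12, 4.11 for ADAMTS2, -0.58 for MMP2, -0.63 for TFPI2 and 2.94 for PLAT. That of TIMP3 was -0.37 and so changed sign. At day 7 the difference of sh003 from control was then 1.36 for MMP2, 2.31 for TFPI2, 1.95 for PLAT and -2.29 for TIMP3, with the same signs as with both libraries.

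A gene was called changed at a Benjamini-Hochberg adjusted p under 0.05 in the limma fit over all 19461 monolayer genes, and 9 of the 10 members entered it. Retinoic acid in control cells gave 2 called members, ADAM12 and MMP2, with 0.956% of all genes called, and 5 with batch as a block (ADAMTS2, PLAT and TIMP3 in addition), with 7.68% called. With sh003 there were 2, ADAM12 and ADAMTS2, with 2.35% called, and 3 with the block (PLAT in addition), with 14.3% called, and 1 without the libraries with contradicting labels. With sh004 there was 1, ADAM12, with 0.380% called, and 1 with the block, with 2.11% called. In control cells 0 were called with only the compared groups in the fit and 1 without any 1 of the 5 control libraries, and in sh003 cells 1 without the sh2 libraries of day 0 in batch 1 or 2 or of day 7 in batch 2. ADAM12, ADAMTS2 and MMP2 were listed because they change, so these shares are given and nothing is read from their counts. The 3 comparisons share no library, and no member was called for a difference in its response between shRNA groups. Of 9 tested, 0 passed for sh003 or for sh004 against control, 0 had an unadjusted p under 0.05, and a voom fit to recovered reads also called 0. Of all genes 0% were called, and 0.0103% with the block for sh004.

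No member was called in a knockdown comparison of the monolayers by limma, by limma with the batch block or by voom; with the block, 0.252% of all genes were called for sh003 at day 0, 0.226% for sh004 at day 7 and 0.714% between them at day 7. Of 9 tested, sh003 against control gave 3 at an unadjusted p under 0.05 at day 0 and 3 at day 7, beside 5.78% and 7.22% of all genes at that p and 0.00514% and 0% called. For sh004 against control these were 0 at day 0 and 1 at day 7, beside 1.94% and 8.04% of all genes and 0% called on both days. For sh003 against sh004 they were 3 on each day, beside 7.24% and 12.0% of all genes, with 0.00514% called at day 0 and 0.0206% at day 7. These counts take in the 5 members chosen for their change. Without the sh004 sh1 library of day 7, 1 member was called between sh003 and sh004 at day 7. With almost no gene called at all in these comparisons, a count of 0 does not show that the members are alike.

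Other genes of the same families give the setting. From a list of 49 other matrix proteases and 12 other inhibitors with the urokinase receptor, 35 were tested in monolayers. With sh003, retinoic acid gave 2 calls among them (5.71%, beside 2.35% of all genes). MMP11 (stromelysin 3) rose from 4.20 ± 1.31 to 64.5 ± 24.5 RPKM (n = 3 each, 3.75 ± 0.58, adjusted p = 0.00889). PLAUR, the urokinase receptor, fell from 12.8 ± 3.04 to 4.53 ± 1.35 RPKM (-1.40 ± 0.23, adjusted p = 0.0101). Control and sh004 cells gave 0 calls of 35, with 5 at an unadjusted p under 0.05 in each, and voom gave 0. With batch as a block there were 3 calls in control cells (8.57%) and 5 in sh003 cells (14.3%), close to the 7.68% and 14.3% of all genes called with the block. The surface protease FAP was among them in both, at 1.92 (adjusted p = 0.0387) and 3.17 (adjusted p = 0.00269).

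In the knockdown comparisons the wider list gave no calls. At day 0 30 of the 35 were higher with sh003 than in control, with a median difference of 0.41 beside -0.06 over all genes tested, and 0 were called (voom also 0), with 9 at an unadjusted p under 0.05. Of all genes 39.8% were higher and 5.78% had such a p. ADAM19, a membrane-anchored metalloproteinase, was among those with the smallest p there (1.30 ± 0.37, adjusted p = 0.526). At day 7 26 of the 35 were higher with sh003, with a median of 0.32 beside -0.09 over all genes and 0 called by limma or voom (8 at an unadjusted p under 0.05 in each). Of all genes 39.2% were higher and 7.22% had such a p. For sh004 9 of the 35 were higher at day 0, with a median of -0.19 beside -0.07 over all genes. Limma and voom called 0, and none had an unadjusted p under 0.05. Every sh004 library is of batch 2 and the day 0 controls are of 3 batches, so batch enters this count and nothing is read from its direction. Among the members, the batch block turned ADAMTS2, PLAU, TIMP1 and TIMP3 from lower to higher in this comparison.

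In spheres the members were described from RPKM recomputed with each library's own read total. ADAM12 and ADAMTS2 were low there, at 0.210 to 5.60 and 0.0201 to 0.184 RPKM, and with MMP14 (0.259 to 0.874 RPKM) did not enter the fit, which held 7 members and 14711 genes. MMP2 stayed between 48.8 and 88.3 RPKM in all 5. The control sphere had 106 RPKM of TIMP3 and 2.21 RPKM of TFPI2, where the day 0 control monolayers had 1.94 to 7.79 and 131 to 398 RPKM. These tables were normalized separately and nothing was tested across them.

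TFPI2 was higher in all 4 knockdown spheres than in the control sphere. Of all genes tested, 40.5% were higher in both sh003 spheres than in that 1 library, and 31.8% in both sh004 spheres. TFPI2 had 56.2 and 69.7 RPKM with sh003 sh1 and sh2 and 82.5 and 44.8 RPKM with sh004 sh1 and sh2. The log2 differences were 4.54 ± 0.38 and 4.50 ± 0.38. The control sphere is 1 library, whose spread was assumed to equal that of the knockdown pairs. Of 7 members 0 were called for sh003 against it (0% of all genes called, also 0 by voom), with 2 at an unadjusted p under 0.05. For sh004 1 was called, TFPI2, with 0.129% of all genes called, and 0 without either sh004 sphere. TFPI2 was chosen for its change, so nothing is read from that count. PLAT was at 1.05 RPKM in the control sphere, 17.1 and 18.6 RPKM with sh004 and, further apart, 34.2 (sh1) and 1.69 RPKM (sh2) with sh003.

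The inhibitors TIMP1 and TIMP3 were lower in the sh003 than in the sh004 spheres. TIMP1 had 20.1 and 7.16 RPKM with sh003 (sh1 and sh2) and 107 and 83.7 RPKM with sh004, beside 17.2 RPKM in the control. TIMP1 was lower with sh003 than with sh004 by 2.92 ± 0.45 on the log2 scale (adjusted p = 0.00902). SYN1 had 2.78 and 0.888 RPKM in the sh003 spheres, 1.21 and 2.18 RPKM in the sh004 spheres and 8.40 RPKM in the control. TIMP3 had 21.4 and 39.2 RPKM with sh003 and 86.4 and 70.6 RPKM with sh004, a difference of -1.41 ± 0.31 (adjusted p = 0.0171). MMP9 had 0.209 and 0.0925 RPKM with sh003 and 2.19 and 3.39 RPKM with sh004 (-2.32 ± 0.36), and entered the fit only through the sh004 spheres, so it had to differ and its p is not given. PLAU had 2.32 and 0.940 RPKM with sh003 and 8.47 and 4.33 RPKM with sh004 (-1.71 ± 0.44).

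In this comparison 39.9% of all 14711 genes were called, 16.8% of all being lower with sh003 (3395 higher and 2470 lower, or 2676 and 3007 after median-ratio scaling, which moved the median of all genes from 0.13 to -0.01). The 7 members gave 4 calls, all lower with sh003, but PLAU was chosen for its change and MMP9 had to differ, so nothing is read from the count. After that scaling TIMP1 was at -3.07 and TIMP3 at -1.57, both still called. With the deposited values in place of the recomputed ones 2 members were called, TIMP3 not among them (adjusted p = 0.418), and without the filter on low values none was. Without the sh004 sh1 sphere 1 member was called, and without the sh004 sh2 sphere none (TIMP1 adjusted p = 0.0508, TIMP3 adjusted p = 0.0635). The call of TIMP3 was also lost without the sh004 sh1 sphere (adjusted p = 0.0785). For PLAT 1 library turned the direction: -1.07 ± 1.15 became 0.92 without the sh003 sh2 sphere and -3.07 (adjusted p = 0.00792) without the sh003 sh1 sphere.

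Of the wider list 27 genes were tested in spheres, and 12 (44.4%, beside 39.9% of all genes) were called between sh003 and sh004, 9 higher and 3 lower with sh003. ADAMTS19 had 22.8 ± 7.51 RPKM with sh003 and 3.11 ± 0.944 RPKM with sh004 (n = 2 each, 2.68 ± 0.31, adjusted p = 0.00867). ADAM17, the sheddase that releases TNF from the cell surface, had 17.0 ± 4.87 and 3.79 ± 0.165 RPKM (2.0 ± 0.25, adjusted p = 0.00867). Both were higher with sh003, unlike TIMP1 and TIMP3.

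**Figure D4:**
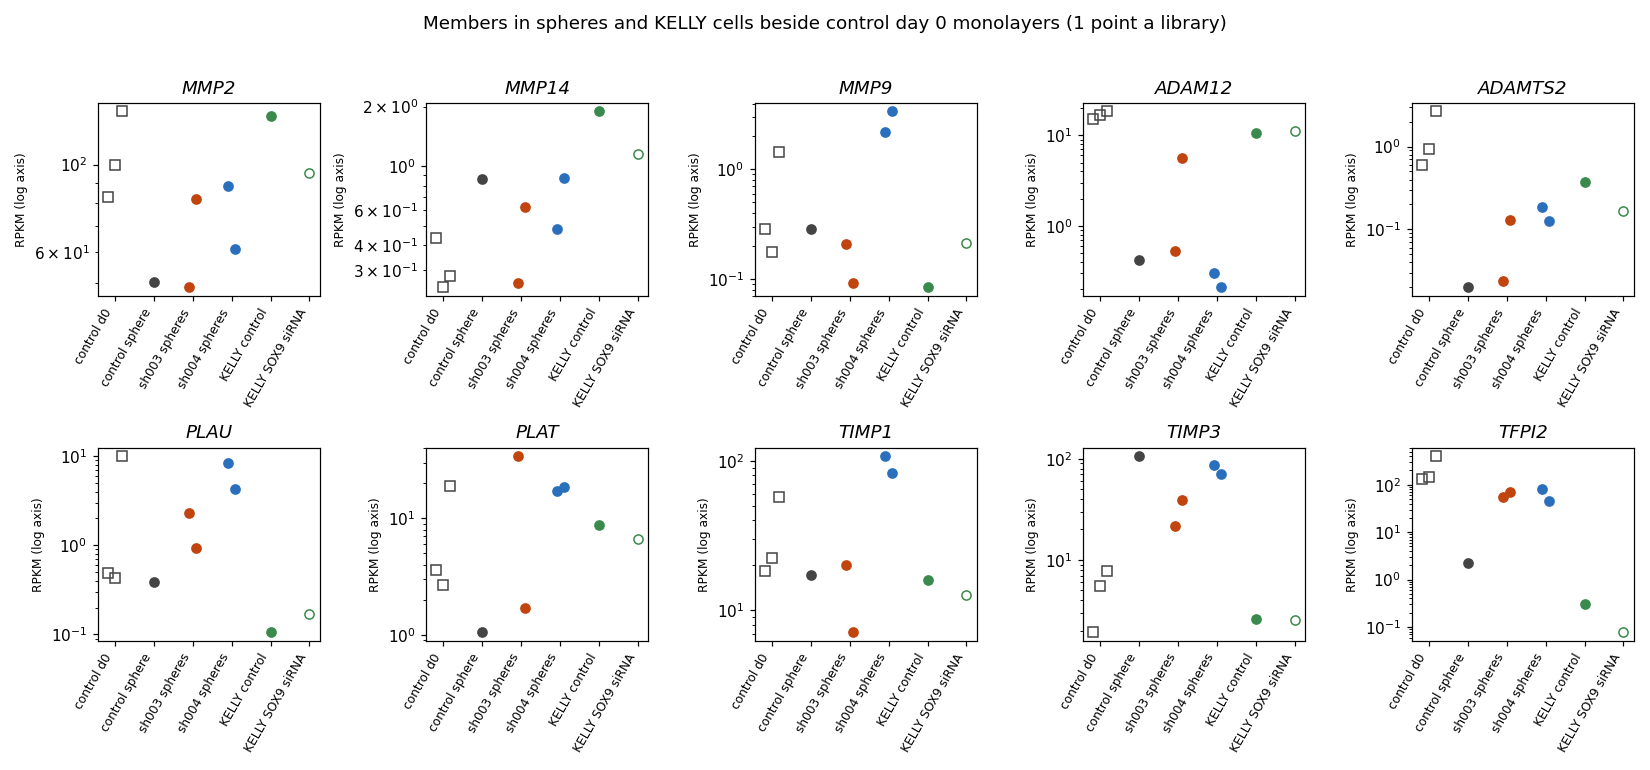
RPKM of the 10 members in the control day 0 monolayers (d0, open squares), the 5 spheres and the 2 KELLY libraries, on log axes that differ between panels, 1 point a library. MMP9, PLAU, TIMP1 and TIMP3 are higher in both sh004 spheres than in both sh003 spheres, and TFPI2 is below 1 RPKM in KELLY cells. Of all genes tested, 32.96% were likewise higher in both sh004 spheres and 42.94% were higher in both sh003 spheres. Nothing is read from the number of members that did so.

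KELLY cells had much MMP2 and hardly any TFPI2. The control siRNA library had 133 RPKM of MMP2, 16.1 of TIMP1, 10.5 of ADAM12, 8.80 of PLAT, 2.64 of TIMP3 and 1.89 of MMP14, and under 0.4 RPKM of ADAMTS2 (0.373), TFPI2 (0.310), PLAU (0.106) and MMP9 (0.0840). With the SOX9 siRNA, SOX9 itself was at 0.974 beside 5.61 RPKM, a ratio of 0.174 (95% exact interval 0.138 to 0.217). MMP2 was at 95.1 RPKM, a ratio of 0.717 (0.700 to 0.734), and 6.72% of 14340 genes were lower by more on the log2 scale. PLAT (0.750), TIMP1 (0.789) and MMP14 (0.612) also had ratios with intervals below 1, as did ADAMTS2 (0.451, from 31 against 73 reads) and TFPI2 (0.253, from 5 against 21 reads). TIMP3 (0.965, interval 0.818 to 1.14) was close to 1, and ADAM12 (1.06, interval 1.01 to 1.12) lay slightly above it. MMP9 (2.55, interval 0.835 to 9.23, from 12 against 5 reads) had a ratio above 1 with a wide interval. So did PLAU (1.59, interval 0.598 to 4.49, from 12 against 8 reads). Of the 14340 genes 43.5% were lower with the SOX9 siRNA. SYN1, which TIMP1 lies in, was at 13.3 and 21.4 RPKM. There is 1 library a group, so these ratios have no replicate check, and the intervals cover counting error only.

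Across the 15 monolayer libraries the members did not vary as one group. Over their 36 pairs, Pearson's r of log2(RPKM + 0.5) ran from -0.77 (TIMP3 with TFPI2) to 0.90 (ADAMTS2 with PLAT), with a median of 0.22. The genes with the highest r to each member were SMAD3 for PLAT (0.97), FER1L4 for ADAMTS2 (0.98), SAMD11 for ADAM12 (0.95) and BICC1 for MMP2 (0.90). They were TRABD2B for PLAU (0.93), ADAMTSL5 for TIMP1 (0.92), CCL7 for MMP9 (0.91), TNFRSF19 for TIMP3 (0.90) and RPN2 for TFPI2 (0.90). The libraries share batches and days, and these values are descriptions of 15 points.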

How the data were processed

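The authors deposited RPKM in 3 tables (monolayer, sphere and KELLY), made with TopHat, featureCounts, Subread and build hg19 per the submitters' processing notes; versions and strand setting are not given in the sources used here. RPKM times gene length and library total gave back whole reads (100% of values within 0.01 of a whole number). In the sphere table the deposited RPKM of a library use 10 totals in rotation from gene to gene, and about 10.0% of genes its own, so sphere RPKM were recomputed with own totals. Libraries were grouped by title; 2 sh003 libraries (sh1 batch 2 day 7 and sh2 batch 1 day 0) have contradicting differentiation tags.

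Genes that reached RPKM 1 in at least 2 libraries of their table (19461 in monolayers, 14711 in spheres) were fitted with limma 3.58.1 in R 4.3.3 on log2(RPKM + 0.5) with a trend, all groups of a table together (9 residual degrees of freedom in monolayers, 2 in spheres), Benjamini-Hochberg adjusted. The pseudocount understates changes of low genes. The fit was tried on simulated reads with no batch effect and less spread than most members had. That does not measure how well it finds changes in these data. Deviations of same-batch control and sh003 libraries from their group means correlated at 0.716 to 0.942 (16 pairs), and those of different batches at -0.920 to 0.744 (29 pairs). The ranges meet, and deviations within a small group oppose each other by construction, so these values do not show that each batch is distinct. The batch-block value (7 residual degrees of freedom) is given where it changes a call. Sequences are from the labels and RefSeq, overlapping genes from GENCODE. The genes named are the 10 members, and from the wider lists up to 6 called genes with the largest change or the 2 smallest p. The members and lists were chosen with earlier results of these data known. Alternatives were pseudocounts of 0.1 and 1, no filter, median-ratio scaling, fewer groups, voom, deposited sphere values and leaving out libraries.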

Additional observations from a re-analysis of the deposited data

How the results depend on the processing

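The number of members called after retinoic acid in control cells (2) was 5 with batch as a replicate block, 0 with only the compared groups in the fit, 1 without the 2 libraries with contradicting tags and 1 to 2 with 1 library left out. With sh003 (2) it was 1 without the contradicting tags, 4 without batch 3 (an alternative chosen after seeing the data) and 1 to 3 with 1 library left out. With sh004 (1) it was 2 without batch 3 and 1 to 2 with 1 library left out. For sh003 against sh004 at day 7 (0) leaving out 1 library gave 0 to 1. In spheres sh003 against control (0) gave 1 as deposited and 0 to 3 with 1 library left out. There sh004 against control (1) gave 2 as deposited, 0 without a filter, 0 by voom and 0 to 4 with 1 library left out, and sh003 against sh004 (4) gave 2 as deposited, 0 without a filter and 0 to 5 with 1 library left out. The shRNA number as a block changed no call there. The block changed no member's call in the knockdown comparisons of monolayers.

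Sign changes were all of values that were not called, and the cause was not tested. After retinoic acid with sh003, MMP9 was 0.24 and TIMP1 0.10 with the block, TIMP1 0.14 without batch 3, and TIMP3 -0.37 without the contradicting tags; in control PLAU was 0.36 without batch 3. Against control at day 0, TIMP3 with sh003 was 0.43 without the contradicting tags. With sh004 at day 0 the block gave 0.64 for TIMP1, 0.019 for TIMP3, 0.36 for ADAMTS2 and 0.85 for PLAU, so that 7 of 9 members were higher in place of 3; without batch 3, TIMP1 was 0.38, MMP2 0.067, ADAMTS2 0.033 and PLAU 0.97. With sh004 at day 7 TIMP1 was 0.045 with the block and 0.057 by voom, and TIMP3 -0.27 with the block. Between sh003 and sh004 at day 0 the block gave -0.42 for MMP9, -0.0040 for PLAT, -0.53 for TIMP3 and -0.016 for TFPI2, so that 5 of 9 were higher in place of 9; TIMP3 was -0.21 with pseudocount 0.1, -0.032 by voom and -1.59 without batch 3, and TFPI2 -0.13 without the contradicting tags. At day 7 MMP9 was 0.13 without those. In spheres, MMP2 of sh003 against control was -0.030 as deposited, and TFPI2 of sh003 against sh004 -0.16 as deposited, -0.11 with median-ratio scaling and -0.13 by voom.

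For the difference of the sh003 response from control, PLAT was -0.079 and TFPI2 -0.090 without batch 3, ADAM12 -0.26 without batch 3 and -0.040 with pseudocount 1, and ADAMTS2 -0.15 without the contradicting tags. For that of the sh004 response, PLAT was -0.50 with the block, -0.023 with pseudocount 0.1 and -0.78 without batch 3, TIMP3 -0.29 with the block, TIMP1 0.038 with median-ratio scaling and 0.19 by voom, and TFPI2 0.022 and 0.11.

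With 1 library left out, the ranges that crossed 0 after retinoic acid were -1.39 to 0.36 (PLAU, control), -0.032 to 0.78 (TIMP1, control), -1.18 to 0.14 (TIMP1, sh003), -0.030 to 2.54 (TIMP3, sh003), -0.09 to 0.060 (MMP9, sh004; 0.037 without the sh2 day 7 library) and -0.52 to 1.08 (TIMP1, sh004). For sh003 against control at day 0 they were -2.14 to 0.43 (TIMP3; 0.19 without sh2 of batch 2) and -0.34 to 1.30 (ADAMTS2). For sh004 at day 0 they were -0.18 to 0.18 (MMP9; -0.072 without the batch 1 control), -0.43 to 0.38 (TIMP1), -0.30 to 0.067 (MMP2), -0.95 to 0.13 (ADAMTS2) and -0.78 to 0.97 (PLAU), and at day 7 -0.42 to 1.53 (PLAT), -0.93 to 0.68 (TIMP1) and -0.22 to 0.54 (TIMP3). Between sh003 and sh004 they were -1.59 to 0.99 (TIMP3, day 0), -0.13 to 0.73 (TFPI2, day 0) and -0.36 to 0.13 (MMP9, day 7). For the difference of the sh003 response they were -0.30 to 0.34 (ADAM12), -0.19 to 1.45 (ADAMTS2), -0.42 to 1.41 (PLAT; -0.31 without the batch 3 control) and -2.39 to 0.19 (TIMP3). For the sh004 response they were -0.95 to 1.01 (PLAT; -0.89 without the batch 2 day 7 control, -0.48 without sh2 of day 0), -0.81 to 0.80 (TIMP1; 0.31 and 0.17 without the day 0 control of batch 1 or 2) and -0.55 to 0.51 (TFPI2). In spheres they were -1.21 to 0.22 (TIMP1) and -0.046 to 0.69 (MMP2) for sh003 against control, and -3.07 to 0.92 (PLAT), -0.58 to 0.16 (MMP2) and -0.40 to 0.48 (TFPI2) for sh003 against sh004. Groups of 1 to 3 libraries, and 5 to 318 reads for MMP9, limit the precision.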
